A study of Mus musculus with 16 samples.

Results

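The 4 vehicle libraries of this mouse RNA sequencing series are described here: bone marrow-derived macrophages that received PBS and neither thrombin nor platelets. They were taken by their titles, which place 4 of the 16 libraries in the vehicle group. Leg marrow (femur and tibia) of C57BL6/J mice had been grown for 7 days in 10% serum with 15% medium conditioned by L929 cells, which supplies M-CSF. The cells were replated at 400000 per well, starved for 4 h in 0.5% serum and given PBS for a further 4 h. Starvation and conditioned medium are thus shared by all groups of the study, so these libraries hold starved macrophages, not freshly isolated ones. L929-conditioned medium is a crude supplement, and M-CSF is the one of its factors that the labels name. The labels do not say whether the 4 replicates came from separate animals, pooled animals or separate cultures. No contrast is drawn, so no test was run, and each value is given with its spread over the 4 libraries.

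Macrophages grown in M-CSF depend on its receptor, Csf1r, and are built around lysosomes, in which cathepsins and other hydrolases digest what the cell has taken up. Platelets reach macrophages through small molecules such as ADP, serotonin and thromboxane, through growth factors and chemokines from their granules, and through adhesion proteins on their surface. Thrombin acts on cells mainly by cleaving protease-activated receptors, whose first member is encoded by F2r. Which of these receptors are transcribed before any exposure is the background against which such stimuli act.

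The libraries held 27691521, 22554915, 27426214 and 27287401 counts for vehicle 1 to 4, so vehicle 2 was the shallowest. Levels are in CPM, the counts of a gene scaled to a common library size with TMM factors, and a gene is called detected when it reached 1 CPM in all 4 libraries. By that rule 13053 of 46320 genes were detected, 28.2% of all genes, and 11635 of 22173 protein-coding genes, 52.5%. A further 22123 genes had no count in any library. Vehicle 1 stood apart in origin: it carried transcripts of the Y chromosome and almost no Xist, whereas vehicle 2, 3 and 4 carried Xist and almost no Y chromosome transcripts. Vehicle 1 therefore has the transcripts of male cells and the others those of female cells, and counts of genes standing apart are also given without it. Where genes are ranked by level against each other, the level per length (TPM) is given, since a long transcript gives more counts than a short one. The order of the most abundant genes is given by CPM and by TPM.

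Upstream sequence is shown for 3 of the 25 most abundant genes. Ctsd and Lyz2 led the order by counts, and Lamp1 was a further lysosomal gene among the 25 with matches to the first motif below. RefSeq promoters on GRCm38.p6 were matched for 18 of the 25 genes, and the 250 bases before the start site were searched on both strands. The first motif, CACGTG, is an E-box bound by the lysosomal regulators TFEB, TFE3 and MITF. The other, GGAAGT, is a core sequence bound by ETS factors such as PU.1. The letters of these motifs do not overlap each other in the sequences printed. Capitals mark the matches, and each sequence runs 5′ to 3′ toward the start site on the strand of its gene. The first 2 belong to lysosomal genes, cathepsin D and the membrane protein Lamp1, and the last to lysozyme, where the match lies on the other strand and reads ACTTCC.
Ctsd (chr7:142387828-142388077, minus strand): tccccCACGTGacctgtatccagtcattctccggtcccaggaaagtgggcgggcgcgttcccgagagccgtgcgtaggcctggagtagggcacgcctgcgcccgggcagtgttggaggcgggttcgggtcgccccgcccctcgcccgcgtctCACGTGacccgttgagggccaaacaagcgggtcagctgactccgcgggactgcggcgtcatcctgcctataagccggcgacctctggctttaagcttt
Lamp1 (chr8:13158911-13159160, plus strand): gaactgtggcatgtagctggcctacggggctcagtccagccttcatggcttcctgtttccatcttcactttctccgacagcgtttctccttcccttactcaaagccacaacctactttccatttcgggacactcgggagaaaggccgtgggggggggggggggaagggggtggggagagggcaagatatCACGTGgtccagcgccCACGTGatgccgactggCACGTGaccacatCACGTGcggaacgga
Lyz2 (chr10:117282273-117282522, minus strand): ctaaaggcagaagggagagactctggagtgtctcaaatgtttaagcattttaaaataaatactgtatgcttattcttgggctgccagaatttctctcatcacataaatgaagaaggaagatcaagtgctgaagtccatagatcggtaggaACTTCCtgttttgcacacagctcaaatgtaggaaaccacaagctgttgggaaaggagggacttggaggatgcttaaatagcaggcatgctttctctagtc
The Ctsd window held 2 matches to CACGTG and the Lamp1 window 4. In all, CACGTG was found for 3 of the 18 genes (Ctsd, Lamp1 and Eef2) and in 6.86% of 27025 promoters of the same length. GGAAGT was found for 5 of the 18 (Lyz2, Psap, Lipa, Eef1a1 and Selenop) and in 22.2% of all promoters. Psap and Lipa are lysosomal genes too, and their windows held no CACGTG. These are matches of letters and say nothing of whether a factor binds there.

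The gene with the most counts was Ctsd, the aspartic protease cathepsin D of the lysosome (chromosome 7, 141929647 to 141941564, GRCm39). It stood at 14520, 17915, 15995 and 14494 CPM in vehicle 1 to 4, a mean of 15731 ± 1616 (SD, n = 4). Lyz2, the lysozyme of macrophages (chromosome 10, 117113446 to 117118177), followed at 13234, 13152, 14191 and 10881 CPM. Several other genes of lysosomal proteins were among the 25 with the most counts. Ctsb, a cysteine cathepsin, stood at 12715 ± 971 CPM, Psap, the precursor of saposins that help break down sphingolipids, at 10404 ± 947 CPM, and Gpnmb, a glycoprotein of lysosome-rich macrophages, at 9933 ± 1757 CPM. The lysosomal genes Ctss (2998 ± 398 CPM), Grn (2607 ± 91.7), Lamp1 (2204 ± 73.3) and Lipa, the acid lipase (2128 ± 167), were also among the 25. Together the 25 most abundant genes took between 12.56% (vehicle 4) and 14.24% (vehicle 2) of the counts of a library, and 56 genes reached 1000 CPM in all 4.

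Per length, Lyz2 was highest at 31422 ± 3241 TPM, ahead of the ferritin light chain gene Ftl1 at 23849 ± 1769 TPM and Ctsd at 21180 ± 1889 TPM. Fth1, the ferritin heavy chain, stood at 10208 ± 1334 TPM, so the iron-storing ferritins took 2 of the 4 highest places. Psap (9683 TPM), the translation factor gene Eef1a1 (8783), Apoe, the lipid carrier apolipoprotein E (7341), Ctsb (6921) and Gpnmb (6699) came next. Of the 25 genes highest by CPM, 16 were also among the 25 highest by TPM. Genes with long transcripts moved down once length was counted, such as Fn1 (fibronectin), Thbs1 (thrombospondin) and Lrp1, a large endocytic receptor. Lrp1, for example, stood at 2956 ± 276 CPM and at 506 ± 39.3 TPM. Short transcripts moved up, such as Tmsb4x, an actin-binding peptide (5750 ± 108 TPM), B2m, the light chain of MHC class I (4712 ± 77.3 TPM), and Tyrobp, a signalling adaptor (4211 ± 240 TPM). Mir6236 reached 5481 ± 658 TPM over its 123 bases. Ftl1, Fth1, Eef1a1, Actb and Tmsb4x have near-identical copies elsewhere in the genome, so their levels as single genes are uncertain.

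**Figure D1:**
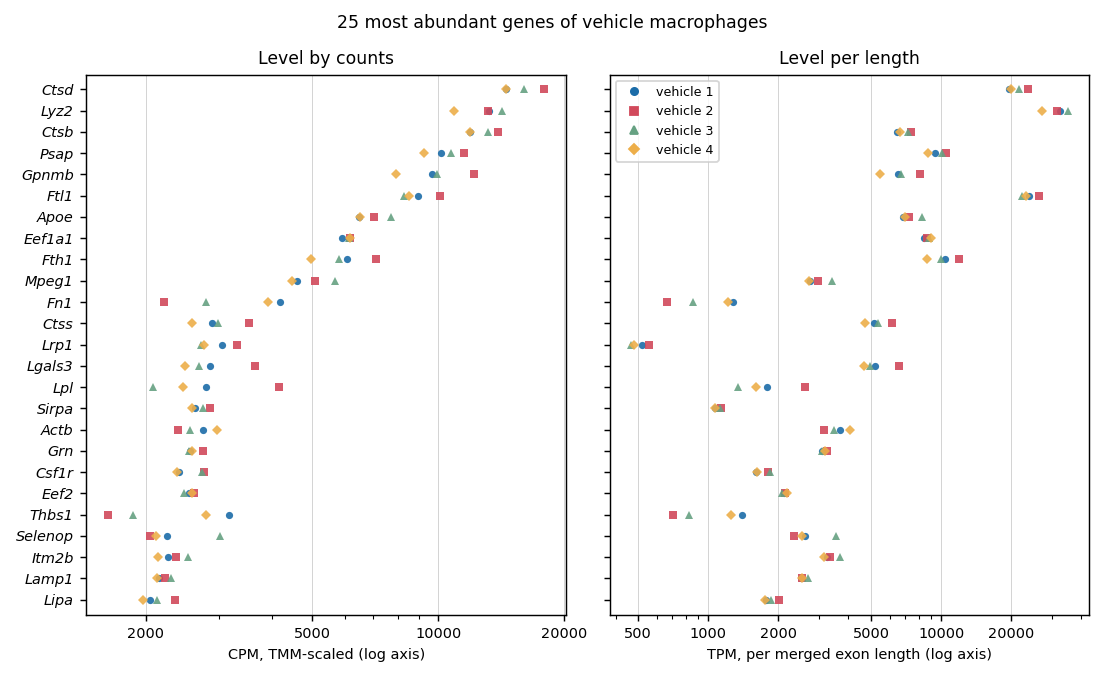
The 25 genes with the highest mean CPM in the 4 vehicle libraries, as CPM on the left and as TPM on the right, both on log axes; each mark is 1 library. Ctsd leads by counts at 15731 CPM and Lyz2 per length at 31422 TPM, and Fn1 and Thbs1 show wide gaps between libraries, with vehicle 1 highest and vehicle 2 lowest.

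The label was checked against Lyz2, Csf1r, Lpl and Adgre1, and all 4 markers were abundant in every library. Csf1r, the M-CSF receptor (chromosome 18, 61238644 to 61264211), stood at 2410, 2762, 2733 and 2374 CPM. Adgre1, which encodes the F4/80 antigen (chromosome 17, 57665581 to 57790529), stood at 1319, 1503, 1580 and 1370 CPM. For both genes the libraries lay close together, with a ratio of highest to lowest of 1.164 for Csf1r and 1.197 for Adgre1. Lpl, lipoprotein lipase, differed more, at 2796, 4168, 2086 and 2456 CPM, with vehicle 2 highest and a ratio of 1.998.

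Of 47 lineage markers, 44 were detected (93.6%), beside 28.2% of all genes and 52.5% of protein-coding genes. The median over all 47 was 491.2 CPM. As a group they took 9.215% ± 0.6861 of counts. The pan-macrophage genes Cd68 (1231 ± 75.3 CPM), Laptm5 (1651 ± 70.6), Itgam, the integrin CD11b (703 ± 54.6), and Ptprc, the leukocyte antigen CD45 (662 ± 49.8), were steady across libraries. The complement genes C1qa, C1qb and C1qc stood at 1143, 2615 and 1980 TPM, and the lipid sensor Trem2 at 1976 ± 181 TPM. Cd14, the lipopolysaccharide co-receptor, stood at 214 ± 18.8 CPM and the Fc receptor gene Fcgr1 at 127 ± 5.06 CPM. The MHC class II chain genes H2-Ab1 and H2-Aa stood at 46.6 and 52.8 TPM and Cd74, the class II invariant chain, at 200 ± 23.9 TPM. Cd86 and Cd80, costimulatory ligands, stood at 26.7 and 12.9 TPM.

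The 3 markers not detected belong to other macrophage states. Timd4, a receptor of long-lived resident macrophages, had 3 counts over the 4 libraries, Cd163, the haemoglobin scavenger receptor, averaged 0.448 CPM, and Ly6c2, a marker of inflammatory monocytes, 0.549 CPM. Ly6c2 reached 1.23 CPM in vehicle 4 and at most 0.402 CPM in the others. Ccr2, the chemokine receptor of the same monocytes, was detected at 17.1, 14, 23.4 and 39.5 CPM, again highest in vehicle 4. Its ratio of highest to lowest was 2.825.

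All 19 transcription factors listed for macrophages were detected, beside 52.5% of all protein-coding genes. By TPM the highest was Spi1, which encodes PU.1, the factor that sets up the myeloid lineage, at 306, 343, 294 and 300 CPM and 500 ± 28.1 TPM. Cebpa, a factor of the myeloid lineage, stood at 243 ± 25.9 TPM. Of the lysosomal regulators, Tfe3 stood at 107 ± 1.81 TPM, Mitf at 23.6 ± 2.39 and Tfeb at 21.9 ± 2.23. The widest spread was in Egr2, a factor of M-CSF and interleukin-4 responses, at 19.3, 30.8, 12.5 and 13.7 CPM, with vehicle 2 highest. In 13 of the 19 the highest value was in vehicle 2, beside 30.0% of all detected genes. Levels within the list differed widely, with Batf3 at 9.25 TPM and Irf4, the lowest, at 0.928 TPM, factors also known in dendritic cells.

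Markers of resident macrophages of single tissues were mixed. Among microglial genes Tmem119 stood at 7.84 ± 2.61 CPM, and Sall1, the factor that defines microglia, had 3 counts, all in vehicle 1. Of alveolar genes, Pparg, which drives that fate, stood at 46.3 ± 5.46 CPM, Siglecf at 5.34 ± 2.36 CPM, and Car4 had none. Kupffer cell markers were near 0 (Clec4f, 1 count; Vsig4, 0.33 CPM) apart from Id3 at 72 ± 19.1 CPM, and Gata6 of peritoneal macrophages averaged 0.381 CPM. The iron-handling genes of red pulp macrophages were well expressed, with Slc40a1, the iron exporter ferroportin, at 433 ± 81.6 CPM and Hmox1, haem oxygenase, at 203 ± 32.3 CPM, while their factor Spic stood at 2.96 ± 0.375 CPM. Osteoclast genes, which M-CSF cultures can acquire when RANK ligand is present, included Atp6v0d2, a proton pump subunit, at 169 ± 61.1 TPM with a ratio of highest to lowest CPM of 2.282. Tnfrsf11a, which encodes RANK itself, stood at 30.7 ± 2 TPM and Nfatc1, the factor downstream of it, at 23.2 ± 1.54 TPM. Of the genes of mature osteoclasts, Ctsk stood at 20.3 ± 4.02 TPM and Acp5 at 15.1 ± 2.62 TPM, while Ocstamp had 13 counts and Calcr none.

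Of the genes that mark classical or alternative activation, 13 of 27 were detected (48.1%), a share close to the 52.5% of all protein-coding genes. Nos2, the inducible nitric oxide synthase, had 8 counts in all and Il6 had 9. Arg1, the arginase of alternative activation, had 16 counts and Retnla none, which allows up to 0.0286 CPM (3 counts over the summed libraries). These limits and the intervals given for low genes cover counting error only. Of 14 classical genes 8 were detected, among them Tnf (14.3 ± 2.49 CPM), the chemokine genes Ccl3 (19.8 ± 3.31) and Ccl4 (12.1 ± 1.18), and Ptgs2, the inducible cyclooxygenase (15.8 ± 1.25). Il1b, which encodes interleukin-1 beta, stood at 0.972, 2.75, 3.69 and 2.38 CPM, lowest in vehicle 1 and under 1 CPM there. Of 13 alternative genes 5 were detected, and Mrc1, the mannose receptor CD206, held 51.0% of that list's counts at 293, 196, 355 and 316 CPM. The anti-inflammatory cytokine genes split, with Tgfb1 at 251 ± 10.6 CPM and Il10 at 0.504 ± 0.0766 CPM.

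Receptors for thrombin and platelet products were then followed. Of 146 genes listed, 93 were detected (63.7%, beside 28.2% of all genes and 52.5% of protein-coding genes), and 11 had no count. Without the coagulation factors and thrombin-binding proteins, 78 of 127 were detected (61.4%). The lists were drawn up with earlier results of these data known, and they hold many genes chosen because leukocytes use them.

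Of the 4 protease-activated receptors 1 was detected. F2r, the thrombin receptor PAR1 (chromosome 13, 95738288 to 95754974), stood at 2.95, 3.25, 4.49 and 4.33 CPM, from 397 counts in all (95% Poisson interval of the pooled level 3.42 to 4.17 CPM). Vehicle 3 and 4 lay above vehicle 1 and 2, and all 4 stayed within 1.521-fold. F2rl3 (PAR4), the thrombin receptor that signals in mouse platelets, stood at 0.144, 0.0903, 0.219 and 0.108 CPM from 15 counts, with an interval of 0.0799 to 0.236 CPM. F2rl2 (PAR3), which assists PAR4, had 17 counts (0.161 CPM). F2rl1 (PAR2), which trypsin-like proteases cleave, had 4 counts (0.0363 CPM). At 2.91 ± 0.631 TPM, F2r was itself a low transcript, ranking 11972 per length among all genes.

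Of 6 other proteins that bind thrombin 3 were detected (50.0%), a share near the 52.5% of all protein-coding genes. Serpine2, the thrombin inhibitor nexin-1, stood at 68.1, 33.1, 48.2 and 61.1 CPM, Thbd, thrombomodulin, at 23.5, 25.2, 24.2 and 22.1 CPM, and Procr, the protein C receptor, at 16.2, 19.1, 9.68 and 8.33 CPM. Thbd was the steadiest of the 3, whereas Serpine2 and Procr ranged over 2.057-fold and 2.292-fold. Per length these 3 stood at 53.3, 16.5 and 12.6 TPM. The other members were near 0, with 18 counts for Serpinc1, which encodes antithrombin, and 1 count each for Serpind1, heparin cofactor, and Gp1ba, the thrombin-binding platelet glycoprotein. Of 13 coagulation and fibrinolysis genes 12 were detected (92.3%, beside 52.5% of protein-coding genes). The exception was F3 (tissue factor, which starts coagulation) at 0.585 ± 0.0817 CPM. The highest were Anxa2 and S100a10, which together bind plasminogen, at 738 ± 51.6 and 345 ± 21.3 TPM. Plau, urokinase, and Plaur, its receptor, stood at 65.9 and 39.3 CPM, and their ranges overlapped per length. The factor genes F10 (7.92 ± 3.54 CPM), F7 (6.02 ± 2.04) and F5 (1.83 ± 0.567) were low, and F13a1, the clot-crosslinking transglutaminase, stood at 22.3, 11.6, 39.3 and 29.7 CPM, lowest in vehicle 2 and highest in vehicle 3.

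Of 15 genes of the P2ry and P2rx families, listed under nucleotide receptors, 8 were detected (53.3%), a share close to the 52.5% of all protein-coding genes. P2rx4, an ATP-gated channel of lysosomes and plasma membrane, was highest at 323, 365, 353 and 294 CPM (316 ± 26.1 TPM). P2ry6, a UDP receptor linked to phagocytosis (151 ± 11.1 TPM), P2rx7, the ATP-gated channel upstream of the inflammasome (60.4 ± 3.97), P2ry2, an ATP and UTP receptor (14.5 ± 1.38), and P2ry14, a UDP-sugar receptor (10.8 ± 2.17), came next, each with a range clear of the one after it. The ADP receptors lay at the end of the order. P2ry12 stood at 8.39, 5.73, 8.91 and 8.15 CPM, P2ry1 at 8.71, 13.5, 7.08 and 7.93 CPM, and P2ry13 at 5.4, 3.16, 5.88 and 5.55 CPM. Per length they were at 7.52, 6.15 and 5.12 TPM, and neighbours in that order overlapped. Vehicle 2 was the lowest library for P2ry12 and P2ry13 and the highest for P2ry1. P2ry4 had no count and P2rx1, the ATP channel of platelets, stood at 0.21 CPM. Of the adenosine receptors, which respond to the product of ATP breakdown, Adora2b was detected at 2.7 ± 0.143 CPM. Adora3 (0.977 ± 0.127 CPM) and Adora2a (0.837 ± 0.46) fell around the detection limit, and Adora1 had no count.

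Receptors for serotonin and thromboxane, platelet mediators with well-known roles in vessels, were sparse. Htr2b stood at 8.06, 15.1, 7.12 and 5.19 CPM and Htr1b at 6.19, 3.88, 4.89 and 7.07 CPM. These were the 2 detected of 13 serotonin genes (15.4%, beside 52.5% of protein-coding genes). Vehicle 2 was the highest library for Htr2b and the lowest for Htr1b. Htr1a, Htr1f, Htr2c, Htr3a, Htr5a and Htr7 had no count, and the transporter gene Slc6a4 had 6. Tbxa2r, the thromboxane receptor, had 18 counts at 0.18, 0.0903, 0.146 and 0.252 CPM. The prostaglandin receptors that raise cyclic AMP were present: Ptger4 at 30.7 ± 1.53 CPM, Ptger2 at 20.6 ± 0.374 CPM, both receptors of prostaglandin E2, and Ptgir, the prostacyclin receptor, at 16.9, 22.4, 13.1 and 12.5 CPM. Ptgdr and Ptgdr2 had none. No histamine receptor of 4 was detected, although Hrh2 passed 1 CPM in vehicle 4.

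Of the lipid receptors, Ptafr, the receptor of platelet-activating factor (chromosome 4, 132291378 to 132309994), stood at 241, 310, 264 and 238 CPM (187 ± 20.6 TPM). The sphingosine 1-phosphate receptors S1pr1 and S1pr2 stood at 109 ± 12 and 102 ± 7.52 TPM with overlapping ranges. S1pr3 was far lower at 2.48 ± 0.633 TPM, and S1pr4 and S1pr5 were at 15 counts and 1 count. The lysophosphatidic acid receptors formed an order of Lpar6 (85.5 ± 12 TPM), Lpar5 (22 ± 1.03 TPM) and then Lpar1 (2.65) and Lpar2 (1.97), whose ranges overlapped. Lpar3 and Lpar4 were not detected.

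**Figure D2:**
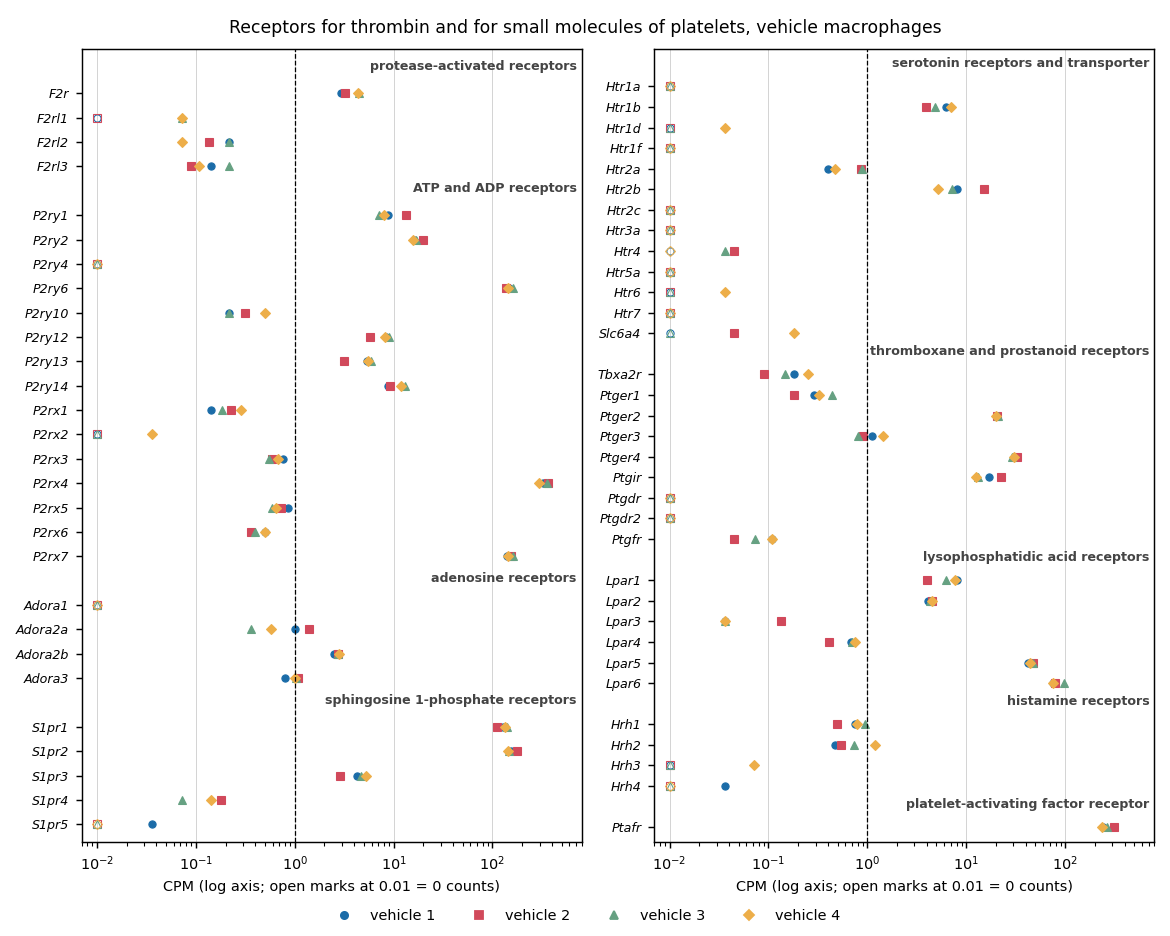
CPM of protease-activated, nucleotide, adenosine, lipid, serotonin, prostanoid and histamine receptors in each vehicle library, on log axes, with open marks at 0.01 for 0 counts and a dashed line at 1 CPM. F2r lies near 4 CPM with its 3 relatives under the line, while P2rx4, Ptafr, S1pr1 and S1pr2 lie above 100 CPM in every library.

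Receptors for platelet growth factors and adhesion proteins were more complete, with 10 of 12 growth factor receptors detected (83.3%, beside 52.5% of protein-coding genes). Of 14 genes listed for chemokines 9 were detected (64.3%), close to the 63.7% of all listed receptors. All 5 TGF-beta receptor genes were detected, from Tgfbr1, the signalling kinase, at 230 ± 13 TPM, through Tgfbr2 (89.5 ± 6.65) and the co-receptor Eng (74.5 ± 6.81), to Tgfbr3 at 2 ± 0.449 TPM. The neuropilins Nrp2 and Nrp1, which bind VEGF and semaphorins, stood at 140 ± 6.81 and 125 ± 9.6 TPM, while the VEGF receptor kinases Kdr and Flt1 stood at 1.28 and 0.592 TPM. Of the receptors for platelet chemokines, Cxcr4, which binds Cxcl12, stood at 185 ± 25 TPM and Ccr1, which binds Ccl5, at 28.5 ± 0.848 TPM. Cxcr3 was detected at 4.11 ± 0.43 CPM, whereas Cxcr2, the receptor of Ppbp products, averaged 0.285 CPM and Cxcr1 had no count. Ccr1 was the steadiest receptor named here, at 31, 30.7, 31.7 and 31.4 CPM.

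All 16 adhesion partners of platelets were detected, beside 52.5% of all protein-coding genes. Sirpa, the CD47 receptor, stood at 1101 ± 36.9 TPM and Cd36, which binds thrombospondin and oxidised lipids, followed it with an overlapping range of 847 to 1121 TPM. Itgb2 and Itgam, the chains of Mac-1, which binds platelet GPIb and fibrinogen, stood at 660 ± 88.8 and 388 ± 24.1 TPM. Selplg, the ligand of platelet P-selectin, stood at 179, 194, 186 and 187 CPM, within 1.082-fold. Pdpn, podoplanin, the ligand of platelet CLEC-2, stood at 4.46, 2.62, 2.67 and 2.56 CPM, highest in vehicle 1. Of the receptors for phosphatidylserine and Gas6, which recognise dying cells and activated platelets, 8 of 10 were detected (80.0%, again beside 52.5%). Stab1 led at 540 ± 34.6 TPM, and Axl stood at 256, 237, 366 and 453 CPM and Mertk at 190, 204, 257 and 194 CPM. Tlr2 (109 ± 14.8 CPM) and Tlr4 (193 ± 14.6 CPM), which sense danger signals, were present with Ly96, the partner of Tlr4, and Trem1 was not (0.346 CPM). Receptors for the colony-stimulating factors were all expressed, with Csf2ra at 256 ± 31.3 CPM and Csf3r at 194 ± 21.5 CPM. Csf2rb (361 ± 61 CPM) and Csf2rb2 (458 ± 86.6 CPM) are near-identical and uncertain as single genes.

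Several growth factor receptors of mesenchymal cells differed between libraries. Pdgfrb, the PDGF receptor of pericytes and fibroblasts, stood at 66.6, 32.9, 41.5 and 59.8 CPM, and Pdgfra at 8.71, 4.78, 6.28 and 6.74 CPM. Egfr stood at 27.1, 13.2, 17.7 and 23.9 CPM and Fgfr1 at 43.6, 25, 26.3 and 38.8 CPM. In each of these 4, vehicle 1 was highest and vehicle 2 lowest, whereas Igf1r and Met were highest in vehicle 4 and Nrp1, Kdr and Flt1 in vehicle 2. Of the 93 detected receptor genes, 8 had that order, a share near the 10.1% of all detected genes, from which nothing is read about receptors. The other 4 were Serpine2, Lpar1, Tgfbr3 and Il1r1. Pdgfra and Pdgfrb are also members of the stromal list described next.

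Transcripts of other marrow cells were followed through marker lists, and the stromal one was by far the largest in counts. Its 17 genes took 1.416%, 0.6954%, 0.8462% and 1.261% of counts in vehicle 1 to 4, a mean of 1.055% ± 0.3395 and a 2.037-fold range. Fn1, which macrophages also express, held 31.2% of it, and without Fn1 the shares were 0.9951%, 0.4775%, 0.5674% and 0.8616%. The collagen gene Col1a1 (chromosome 11, 94827050 to 94843868), a defining product of fibroblasts, stood at 2376, 1222, 1286 and 2107 CPM, and Col1a2, its partner chain, at 2256, 1111, 1256 and 1896 CPM. Acta2, the actin of smooth muscle and myofibroblasts, stood at 1422, 718, 873 and 1245 CPM, Sparc, a matrix glycoprotein, at 1179, 554, 703 and 1002 CPM, and Postn, periostin, at 806, 360, 478 and 666 CPM. Vehicle 1 and 4 were high and vehicle 2 and 3 low for each of these. In bulk RNA, a change in the number of such cells and a change in their RNA per cell cannot be told apart.

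The stromal markers kept one order. Of the 13 detected, 12 were highest in vehicle 1 and lowest in vehicle 2, beside 10.1% of all detected genes, and 13 of 13 were lowest in vehicle 2, beside 32.0%. The exception was Cxcl12, the chemokine of marrow stroma, at 106, 54, 76.9 and 112 CPM. Col3a1 had the widest range, at 368, 142, 161 and 260 CPM (2.6-fold). Not all stromal genes were present: Lum, a collagen-binding proteoglycan, had 4 counts, Dcn, decorin, averaged 0.443 CPM, Lepr, which marks marrow stromal cells, 0.151 CPM and Thy1 0.858 CPM. Thbs1, among the 25 most abundant genes, had the same order at 3157, 1627, 1864 and 2796 CPM. What the order reflects was not tested.

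Several other lists were carried by 1 gene that macrophages also express. Lpl held 96.7% of the adipocyte list, and Adipoq, which defines adipocytes, had 1 count and Plin1, Lep and Cfd none. Spp1, osteopontin, held 98.9% of the bone-forming list at 2012 ± 188 CPM, while the osteocalcin genes Bglap and Bglap2 had 7 and 2 counts. Cd4 held 94.3% of the T and NK cell list, and Cd3e, Cd3g, Cd8b1, Trbc1 and Nkg7 had no count. Epor held 92.8% of the erythroid list at 1.57 ± 0.501 CPM. Among the haemoglobin genes, Hbb-bs and Hbb-bt had no count and Hba-a1 and Hba-a2 had 1 each, although these pairs are too alike to be told apart with certainty.

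Platelet and megakaryocyte markers took 0.0291% ± 0.002454 of counts before any platelet was added. Pf4, platelet factor 4 (chromosome 5, 90920294 to 90921242), made up 69.0% of that, at 227, 179, 197 and 194 CPM and 875 ± 92.3 TPM. Vwf, von Willebrand factor, stood at 75.7, 108, 54.1 and 61.9 CPM, with vehicle 2 highest. Gng11, a G protein subunit (6.65 ± 0.514 CPM), Treml1, a receptor of platelet granules (5.18 ± 1.16) and Gp1bb (2.18 ± 0.915) were the other detected members. The genes that define the lineage were at or near 0: Gp9 had no count, Gp6 and Gp1ba 1 count each, Nrgn 2, Selp 3, Gp5 4 and Ppbp 26. Without Pf4 the list took 0.00917% of counts.

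Neutrophil markers were low and moved together. S100a9, a calcium-binding protein of granulocytes, stood at 7.06, 5.01, 12.9 and 19.8 CPM, Ngp at 6.34, 5.24, 12.7 and 18.8 CPM, and Ltf, lactoferrin, at 5.26, 4.92, 9.35 and 15.1 CPM. All 5 detected members, with S100a8 and Lcn2, were highest in vehicle 4 and lowest in vehicle 2, beside 13.1% of all detected genes, although for S100a8 and Lcn2 vehicle 1 and 2 were nearly equal. The list took 0.002208% of counts in vehicle 2 and 0.00748% in vehicle 4, a 3.388-fold range. Ly6g, which defines mature neutrophils, had 2 counts, and Elane and Mpo, of their precursors, had 15 and 40. The monocyte genes Ccr2 and Ly6c2 and the gene Chil3 (5.44, 5.91, 9.78 and 17.4 CPM) were also highest in vehicle 4. Their part in the neutrophil pattern was not tested.

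Other lists were smaller or steadier. The dendritic cell list (0.0196% ± 0.0005138) rested on Bst2 and Tcf4, with Xcr1 at 0 and Flt3 at 0.181 CPM. Ighm, the heavy chain of immunoglobulin M, stood at 21.1, 13.7, 25.4 and 22.5 CPM and held 56.3% of the B cell list, whose defining members Ms4a1 and Pax5 had 3 counts and 1 count. The mast cell, basophil and eosinophil list had 8 of 13 members at 0. Endothelial genes were scarce, with Kdr alone detected, and several were lowest in vehicle 1: Pecam1 stood at 0.396, 1.62, 2.48 and 1.98 CPM, Cdh5, the cadherin of endothelial junctions, at 0.396, 1.76, 2.12 and 1.8 CPM, and Emcn at 0.18, 0.903, 1.5 and 1.12 CPM. Progenitor markers included Cd34 at 6.73 ± 2 CPM and Gata1 at 1 count.

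**Figure D3:**
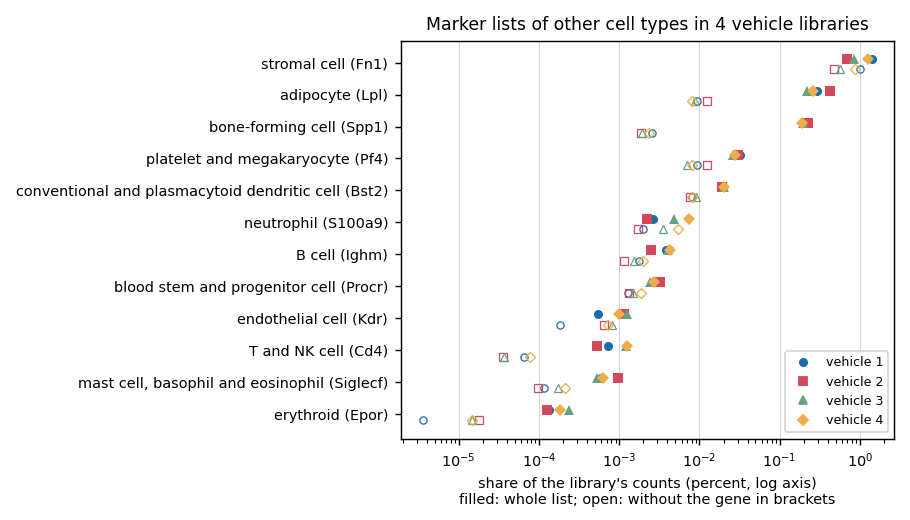
Share of counts in 12 marker lists of other cells, in percent on a log axis, for each vehicle library; filled marks are the whole list and open marks the list without the gene in brackets, its most abundant member. The stromal share is the highest at 1.055% and ranges over 2.037-fold, and the adipocyte and bone-forming shares fall steeply once Lpl and Spp1 are left out.

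All 15 cell cycle genes were detected, beside 52.5% of all protein-coding genes. Mki67, the proliferation antigen, stood at 333, 319, 396 and 445 CPM, Top2a, a topoisomerase of dividing cells, at 217, 204, 248 and 281 CPM, and Ccna2, cyclin A2, at 72.7, 67.3, 84.7 and 99.5 CPM. Of the 15, 14 were highest in vehicle 4, beside 24.0% of all detected genes, and the other one, Pcna, was highest in vehicle 2. The genes of growth arrest and starvation were all detected too, led per length by the thioredoxin inhibitor Txnip at 359 ± 23.4 TPM, the cell cycle inhibitor Cdkn1a at 316 ± 20.3 TPM and the factor Klf6 at 265 ± 7.07 TPM. Their summed share was steady, at 0.1664% ± 0.00561.

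Among 15 immediate early genes 14 were detected, beside 52.5% of all protein-coding genes. Atf3, a stress-induced factor, was highest per length (389 ± 117 TPM) and stood at 279, 439, 236 and 241 CPM, with vehicle 2 above the rest. Between libraries Jun (109 ± 5.88 CPM), Fos (54.5 ± 3.06) and Egr1 (14 ± 1.59) varied less. All 14 interferon-stimulated genes were detected, again beside 52.5%. Among them were Bst2 at 365 ± 13.4 TPM, the highest per length, and Oasl2 at 54.9 ± 7.37 TPM. Ifi44, the lowest per length, stood at 4.86, 2.84, 4.93 and 7.83 CPM, and 12 of the 14 were lowest in vehicle 2, beside 32.0%. In the sterol and lipid list, the cholesterol exporters Abca1 and Abcg1, targets of LXR, stood at 650 ± 85 and 276 ± 48.9 CPM. The desaturase gene Scd1 stood at 23.1, 11, 14.8 and 16.4 CPM. For 7 of the 14 genes vehicle 1 was highest and vehicle 2 lowest, the order seen in the stromal markers, beside 10.1% of detected genes.

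**Figure D4:**
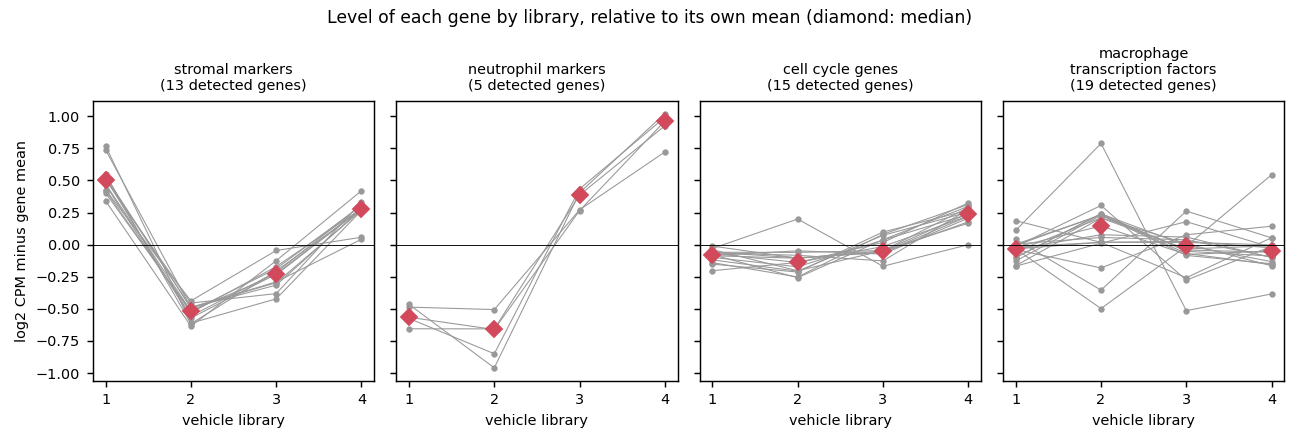
Level of each detected gene of 4 lists in vehicle 1 to 4, as log2 CPM minus the mean of that gene; a line joins the values of 1 gene, diamonds are medians over the list, and the libraries have no order. The 13 stromal markers share a course with vehicle 1 high and vehicle 2 low, the 5 neutrophil markers and most of the 15 cell cycle genes are highest in vehicle 4, and 13 of 19 transcription factors are highest in vehicle 2.

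The spread between libraries was small for most genes. The biological coefficient of variation estimated by edgeR was 9.79% in common over 14399 genes, with a median of 8.63% for single genes, and it fell to 7.92% without vehicle 2. For comparison the median was 10.2% for the lineage markers, 7.85% for the starvation genes, 23.0% for the stromal markers and 37.9% for the neutrophil markers. The chi-square per degree of freedom between pairs of libraries was 12.4 to 34.3, above counting noise, so none was treated as a repeat deposit of another. Vehicle 1 had the transcripts of male cells, with Xist at 0.072 CPM against at least 1193 CPM in the other libraries. Its RNA was therefore not the same as theirs. Among those other libraries, the chi-square does not tell separate cultures from separate preparations of 1 RNA.

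Few genes stood apart in a single library. Among 11071 genes with a mean of 5 CPM or more, 12 (0.108%) were at least 2-fold above or below each of the other 3 libraries. Of these 9 were in vehicle 1, 3 in vehicle 2, and none in vehicle 3 or 4, and 6 lay on chromosomes X or Y. This split depended on the limits. Without chromosomes X and Y, vehicle 1 and vehicle 2 had 3 genes each. At 1.5-fold, 30 genes stood apart in vehicle 1, 85 in vehicle 2, 7 in vehicle 3 and 8 in vehicle 4. The 2-fold count over all chromosomes was 22 without vehicle 1, 13 without vehicle 2, 64 without vehicle 3 and 50 without vehicle 4. Fewer libraries then had to be cleared, equally so in each case, which does not account for the differences between these counts. Without vehicle 3, 46 of the 64 were in vehicle 2, and without vehicle 4, 44 of the 50 were in vehicle 1. The Y chromosome genes Ddx3y, an RNA helicase (87.9, 0.0903, 0 and 0 CPM), Eif2s3y, a translation factor subunit (80, 0.0451, 0 and 0), and the histone demethylase genes Uty (38.8 CPM) and Kdm5d (32.2 CPM) were counted in vehicle 1 and at 0 or near 0 elsewhere. Xist, the RNA that silences an X chromosome, went the other way at 0.072, 1211, 1193 and 1254 CPM. Zmat1, also on X, stood at 0.216, 9.43, 9.31 and 5.19 CPM.

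Genes of other chromosomes also set vehicle 1 and 2 apart. Gdf3, a TGF-beta family ligand (chromosome 6, 122582362 to 122587046), stood at 14.5, 69.3, 54.8 and 59.5 CPM, Etnk1, an ethanolamine kinase, at 53.1, 108, 118 and 107 CPM, and Eps8l1 at 5.04, 14.2, 16.6 and 11.9 CPM. In vehicle 2, Mamdc2 was high at 36.5, 75.2, 28.4 and 28.1 CPM. Il1rl1, the interleukin-33 receptor (7.96, 2.75, 6.68 and 6.38 CPM), and Smoc2, a matrix protein (19.8, 6.14, 13.3 and 16.8 CPM), were low there. In 11 of the 12 genes the same-numbered library was also the extreme one, in the same direction, within each of the 3 treated groups. Each of the 11071 genes has a highest and a lowest vehicle library, and of these 22142 extremes of any size 18.8% did so. The labels do not say what a replicate number marks.

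Pairs of vehicle libraries differed unequally. Vehicle 1 and 2 differed at least 2-fold in 175 of 11071 genes (1.58%), 166 of them higher in vehicle 1, whereas vehicle 3 and 4 differed in 5 (0.0452%). The other pairs lay between, with 18 genes (0.163%) for vehicle 1 and 4, 34 (0.307%) for 2 and 3, 60 (0.542%) for 1 and 3, and 100 (0.903%) for 2 and 4. Of the 175 genes, 174 had the same direction between libraries 1 and 2 in all 3 treated groups, beside 45.8% of all 11071 genes. Among them were 7 of the 13 stromal markers.

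**Figure D5:**
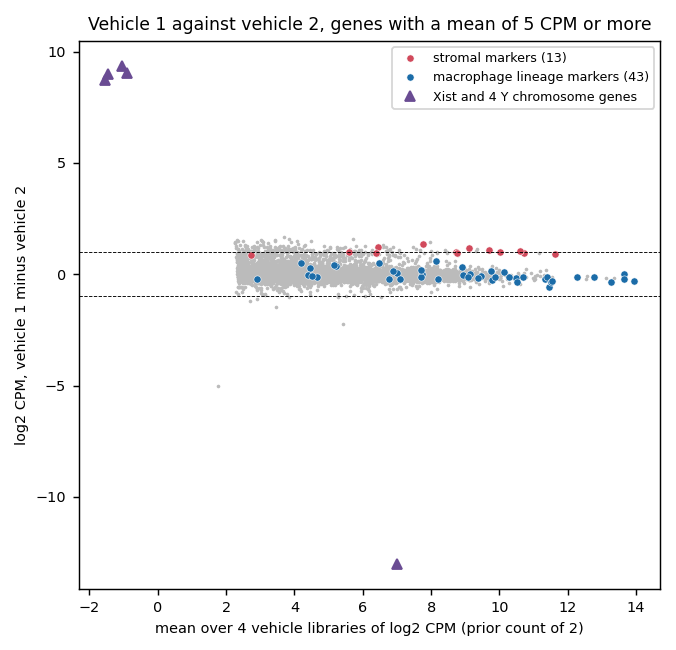
Log2 CPM of vehicle 1 minus vehicle 2 against the mean over the 4 vehicle libraries of log2 CPM, for 11071 genes with a mean of 5 CPM or more; dashed lines mark a 2-fold difference. The stromal markers lie near or above the upper line, the macrophage lineage markers lie around 0, and Xist and the 4 Y chromosome genes lie far from both.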

How the data were processed

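Poly(A) RNA of 16 libraries was prepared with a strand-preserving kit, per the labels' protocols. The authors deposited 1 table of estimated counts per gene, with no normalization, for 46320 genes with RefSeq coordinates on GRCm39 and a merged exon length. Tools named per the submitters' processing notes are featureCounts 1.6.4 (Subread), STAR 2.7.2b and cutadapt 2.5. The builds named are GRCm39 and mm10, without saying which served what. How strand and multi-mapping reads were handled is not given in the sources used here. Genes with near-identical copies, an overlap or an antisense partner are therefore uncertain. Of the vehicle values above 0, 25.2% were not whole, although whole counts had been assumed. All were rounded, which changed 0.00733% of counts. Mitochondrially encoded proteins were not analysed here.

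Vehicle libraries alone were scaled by TMM in edgeR 4.0.16 (R 4.3.3), with factors of 0.9823 to 1.016. TPM used the merged exon length. Dispersion came from estimateDisp on genes passing filterByExpr. Standing apart was judged on log2 CPM with a prior count of 2. Scripts were tested on simulated data. The members, gene lists and rules were chosen with earlier results of these data known. Named were the 25 genes highest by CPM and the 15 highest by TPM, detected receptors or their groups, lineage genes by level, the 3 highest members and those at 0 of each other-cell list or part of these, and genes standing furthest apart. State genes, low receptors, Chil3 and other low markers named beside these were chosen after their values were seen. Alternatives were DESeq2 1.42.0 size factors, other detection limits and folds, and leaving out each library.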

Additional observations from a re-analysis of the deposited data

Results flagged for a closer look

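A library was singled out when its gap to the nearest other library was a large share of the whole range. The limit was Dixon's 95% critical value, which chance alone passes for about 1 of 20 results. The 334 results examined were levels of single genes and the shares of the other-cell lists. The limit was passed by 24 of them, all levels of genes, 9 in vehicle 1, 7 in vehicle 2, 2 in vehicle 3 and 6 in vehicle 4.

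In vehicle 1 the Y chromosome genes were high (Ddx3y 87.9, Eif2s3y 80.02, Kdm5d 32.22 and Uty 38.77 CPM), and so was Pdpn at 4.464 CPM against at most 2.665. Low in vehicle 1 were Xist (0.07199 CPM against at least 1193), Etnk1 (53.13 against at least 107), Eef1a1 (5886 against at least 6122) and Adora2b (2.484 against at least 2.753).

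In vehicle 2, 7 genes were high: the macrophage genes Pparg at 54.39 CPM, Trem2 at 1018 and Marco, a scavenger receptor, at 2.934, the receptor genes Plaur at 46.31 and Acvrl1 at 45.59, Treml1 at 6.906 and the starvation-responsive factor Foxo3 at 147.1. Vehicle 3 was high for Lpar6 at 98.25 CPM and Fcer1g, the Fc receptor gamma chain, at 587.7 CPM.

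In vehicle 4 the DNA replication genes Mcm2 (49.05 CPM), Mcm3 (56.8) and Mcm5 (74.87), the thymidylate synthase gene Tyms (22.9) and the tubulin regulator Stmn1 (198.3) were high, all from the cell cycle list. Nr4a1, an immediate early gene, was low there at 2.164 CPM against at least 2.483 in the others.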

How the results depend on the processing

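Over the combinations of a main value and an alternative, 83 stayed within the limits set for a change and 21 moved. The count of detected genes (10733 to 14382) and of receptors (71 to 103) stayed within 1.5 times the main count under every alternative run. Without its most abundant member, the share of counts was 0.00917% for platelet, 1.26e-05% for erythroid, 0.00161% for B cell, 5.35e-05% for T and NK cell, 0.00818% for dendritic cell, 0.000148% for mast cell, basophil and eosinophil, 0.00218% for bone-forming, 0.000591% for endothelial, 0.00966% for adipocyte and 0.00148% for progenitor markers, which shows how far 1 gene sets each list. Leaving out 1 library gave a common coefficient of variation of 7.92% (without vehicle 2) to 10.5% (without vehicle 3). A gene then has to clear 2 libraries and not 3, whichever library is left out. The number of genes standing apart was then 13 (without vehicle 2) to 64 (without vehicle 3), with 22 without vehicle 1 and 50 without vehicle 4. That count was 130 at 1.5-fold, 7 at 3-fold, 52 from a mean of 1 CPM, 6 from 20 CPM and 6 without chromosomes X and Y. Of those, 102 of 130 at 1.5-fold and 6 of 6 from 20 CPM recurred in all 3 other groups. By TPM, 16 of the 25 most abundant genes stayed among the highest 25. No paired analysis was possible because the results come from no test. At this depth, genes under about 0.1 CPM rest on 3 counts or fewer in a library.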
